A study of Mus musculus with 12 samples.

Results

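The genes described are 33 members of the routes by which pyruvate enters the mitochondrion and is oxidised or recycled, chosen as the genes of a fixed list of tricarboxylic acid cycle, pyruvate dehydrogenase and pyruvate cycling enzymes that are present in the deposited table of 18351 genes. All 33 listed genes were present, each with 1 entry. RNA was sequenced from islets of Aldh1b1tm1lacZ null mice, which carry a lacZ knock-in null allele in all tissues, and from wild-type mice, at postnatal day 1 (P1) and at week 8. Each of the 4 groups (P1 wild-type, P1 null, week 8 wild-type and week 8 null) held 3 libraries. Each P1 library pooled the islets of 3 mice and each week 8 library came from 1 mouse, and the study's methods name male mice as the source of islets. The library numbers in the sample titles form separate series at P1 and week 8. The age of the mice cannot be told apart from this pooling or from the library series. The labels do not say that the P1 pools came from separate litters, so the P1 p-values measure the spread between these pools. Values are normalised counts, that is, reads of a gene divided by the size factor of the library.

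Pyruvate made by glycolysis enters the cycle as acetyl-CoA through the pyruvate dehydrogenase complex, which kinases switch off and phosphatases switch on, or as oxaloacetate through pyruvate carboxylase. Beta cells are known for low lactate production and for using both routes, so that glucose is oxidised almost completely and cycle intermediates can leave the mitochondrion, return to pyruvate and pass reducing power to the cytosol. Citrate lyase, malic enzymes, mitochondrial phosphoenolpyruvate carboxykinase and the NADP-linked isocitrate dehydrogenases serve this exit and return.

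Libraries held 15212080 to 19496469 reads in genes at P1 and 21665200 to 29248285 at week 8. Aldh1b1 had 40 to 121 reads in wild-type and 0 to 3 reads in null libraries. Each of 14 beta, 7 alpha, 4 delta, 28 acinar, 8 duct, 8 endothelial, 8 mesenchyme and 6 macrophage markers was detected in every library. The 28 acinar markers took 2.18 to 6.82% of the reads of P1 wild-type libraries and 11.2 to 26.1% of those of P1 null libraries, against 49.6 to 55.8% for wild-type and 12.9 to 24.3% for null libraries at week 8. The 14 beta cell markers took 4.65 to 7.53%, 1.27 to 3.03%, 2.63 to 5.22% and 11.9 to 13.7% in the same order. In these bulk samples fewer cells of a type and less RNA per cell cannot be told apart, and the part of acinar and beta cell content in any difference below was not tested beyond the values given beside it. P1 wild-type replicate 1 stood apart: its departure from the mean of the P1 libraries fell with transcript length (rank correlation across genes −0.48, against −0.16 to 0.26 for the other libraries and the mean of their age), and 14 of the 33 members lay more than 25% outside both other P1 wild-type libraries there, against 0 to 7 in the others.

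The 33 members together took 0.131 to 0.354% of reads. On the scale of normalised count per kb of transcript, levels of different genes depend on the deposited transcript lengths. Whether those lengths match the transcripts present in islets was not tested. On that scale Acly (ATP citrate lyase, which cleaves exported citrate) was highest in each group. Acly stood at 1818 ± 425 for wild-type and 1452 ± 85.2 for null pools at P1. At week 8 it stood at 1626 ± 251 for wild-type and 2881 ± 142 for null animals (SD, n = 3). Its part of the per-kb sum of the 33 members was 11.0% ± 1.45 for wild-type and 18.5% ± 0.555 for null animals at week 8. Mdh2 (mitochondrial malate dehydrogenase) came next at P1, at 1354 ± 335 for wild-type and 1110.2 ± 132 for null pools, and Mdh1 (its cytosolic counterpart) came next at week 8, at 1293 ± 56.5 and 1414 ± 80.7. Me3 (mitochondrial NADP-linked malic enzyme) was lowest, its group means running from 3.4 to 5.84 per kb. These ranks are a description, and neighbours such as Idh2 (mitochondrial NADP-linked isocitrate dehydrogenase) and Pck2 in week 8 wild-type islets, at 1071 ± 173 and 1056 ± 96.1, did not differ beyond their spread.

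No member passed the test between null and wild-type islets at P1, and 11 of 33 passed it at week 8, 3 of them higher and 8 lower in null islets. The test was limma on log2(value + 1) with Benjamini-Hochberg adjustment over all genes, calls were made below an adjusted p of 0.05, and log2 fold changes below are on that scale with their SE (n = 3 libraries per group). At P1, 0.0658% of 18235 genes passed (0.0548% higher and 0.011% lower). An unadjusted p under 0.05 was reached by 1 member (Me2), beside 15.0% of all genes, and the smallest adjusted p was 0.284 (limma). On recovered reads edgeR and DESeq2 also called 0 members, with 2 and 1 at an unadjusted p under 0.05. P1 log2 fold changes ran from -0.62 (Ogdhl) to 0.45 (Me2) with a median of 0.016, against 0.027 over all genes. Null and wild-type pools did not overlap for Me2 and Aco1 (higher) and for Dlat and Idh1 (lower), beside 12.7% and 10.9% of all genes. The 95% intervals at P1 had a median half-width of 0.41. At P1 28 of 28 acinar markers had estimates above 0 with a median of 2.67, of which 2 passed.

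At week 8, 28.1% of 18126 genes passed (12.3% higher and 15.8% lower), beside 33.3% of the members, and 16 members had an unadjusted p under 0.05, beside 40.1% of all genes. Higher in null islets were Fh1, Acly and Ogdhl, and lower were Pdk4, Pdk2, Me2, Pck2, Cs, Suclg1, Idh3b and Pdha1. The median log2 fold change was 0.027 for the members and 0.020 for all genes, with 17 members above and 16 below 0. In the same comparison 28 of 28 acinar, 8 of 8 mesenchyme and 6 of 8 duct markers were lower and 11 of 14 beta cell markers higher in null islets. Null and wild-type values did not overlap for 7 members on the higher and 9 on the lower side, beside 21.5% and 22.1% (together 43.6%) of all genes. Calls of Acly, Pck2, Me2 and Pdk2 were kept when any 1 of the 6 libraries was left out, whereas without wild-type replicate 3 the counts fell to 1 higher and 3 lower, without animal MUT229 to 2 and 3, and without MUT218 to 2 and 4. The share of all genes called under these and later omissions is not given here, so such counts do not set the members against other genes. With the acinar marker share as a covariate in a fit of all 12 libraries, 0 members were called; that share is nearly set by the groups, from 49.6% upward in week 8 wild-type and from 26.1% downward in all other libraries.

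**Figure D1:**
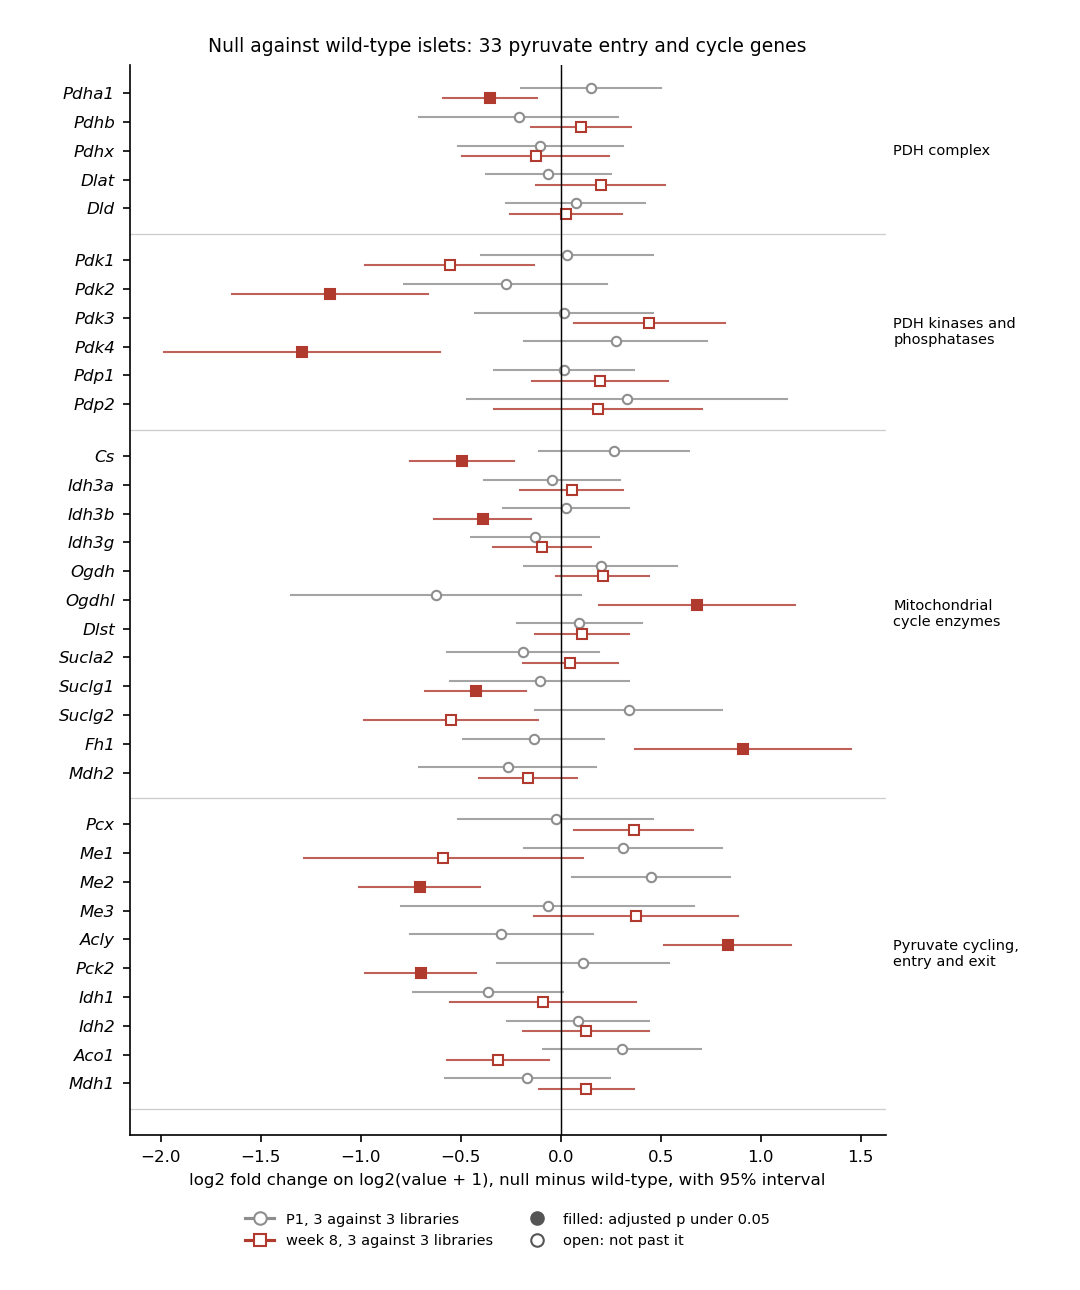
Log2 fold change of null over wild-type islets for the 33 members at P1 (grey circles) and week 8 (red squares), grouped by role, with 95% intervals; filled symbols passed an adjusted p under 0.05. All P1 symbols are open, and 11 week 8 symbols are filled, 3 of them to the right of 0.

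The 250 bases before the RefSeq start sites (GRCm38.p6) are shown for the 3 genes that were higher in week 8 null islets, each of which holds a GC box, and for the first start of Ogdh, the relative of Ogdhl, which holds a cyclic AMP response element. Other starts of Ogdh hold a GC box as well. Among members lower in week 8 null islets, Cs and Pck2 hold a GC box. Pdk4, Pdk2, Suclg1, Idh3b and Pdha1 do not, and Me2 had no matched sequence. Members that did not pass, such as Pcx and Mdh1, also hold it. Any relation between the box and the direction of change was not tested. Sequences were matched for 30 of the 33 members, with 40 start sites. Capitals mark GGGCGG or its reverse complement (the GC box bound by Sp1-type factors) and TGACGTCA (the cyclic AMP response element, which is its own reverse complement). The regions lie at chr11:100528001-100528250, minus strand for Acly, chr1:175625636-175625885, minus strand for Fh1, chr14:32321769-32322018, plus strand for Ogdhl and chr11:6291347-6291596, plus strand for the first start of Ogdh.
Acly: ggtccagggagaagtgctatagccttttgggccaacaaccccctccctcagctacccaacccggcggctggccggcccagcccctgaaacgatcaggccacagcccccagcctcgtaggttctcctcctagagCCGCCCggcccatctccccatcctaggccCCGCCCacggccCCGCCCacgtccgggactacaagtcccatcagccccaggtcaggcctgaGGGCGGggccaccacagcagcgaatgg
Fh1: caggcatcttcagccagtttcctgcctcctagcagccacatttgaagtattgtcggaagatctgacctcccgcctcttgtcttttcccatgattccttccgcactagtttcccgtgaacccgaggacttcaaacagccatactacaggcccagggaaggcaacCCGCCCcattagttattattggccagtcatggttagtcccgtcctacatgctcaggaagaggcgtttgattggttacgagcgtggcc
Ogdhl: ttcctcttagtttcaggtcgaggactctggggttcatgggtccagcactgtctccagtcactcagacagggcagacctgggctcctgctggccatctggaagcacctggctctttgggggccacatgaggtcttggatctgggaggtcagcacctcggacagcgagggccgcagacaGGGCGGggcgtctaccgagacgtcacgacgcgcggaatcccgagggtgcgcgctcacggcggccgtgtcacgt
Ogdh: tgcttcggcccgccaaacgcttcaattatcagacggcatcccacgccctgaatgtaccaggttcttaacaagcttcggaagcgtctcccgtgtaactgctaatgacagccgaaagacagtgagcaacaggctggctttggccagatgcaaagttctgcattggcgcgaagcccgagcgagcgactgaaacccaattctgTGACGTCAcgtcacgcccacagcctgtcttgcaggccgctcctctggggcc
GGGCGG on either strand stood in 24 of the 40 member regions (60%) and in 32.7% of all 32851 start regions of this length; this motif was chosen after the data were seen. By gene it stood in 22 of 30 members (73.3%) and in 35.4% of all 27025 genes. TGACGTCA stood in 2 of 30 members (6.67%), Ogdh and Mdh2, and in 1.77% of all genes; overlapping regions of neighbouring Ogdh starts hold the same site. TCAAGGTCA, bound by oestrogen-related receptors, was found in 0 of 30 members and in 0.422% of all genes, and the palindrome bound by NRF1 in 0 of 30 and in 0.877%. A match is a description of these letters and carries no statement on binding.

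Among the 5 genes of the pyruvate dehydrogenase complex, only Pdha1 passed the test at week 8 (20%, beside 28.1% of all genes), and 0 passed at P1. Pdha1 encodes the alpha subunit of the E1 enzyme, which takes the carboxyl group off pyruvate and is the target of the kinases. Pdha1 measured 1614, 1726 and 1537 in the week 8 null mice (MUT218, then MUT219, then MUT229) against 2103, 1973 and 2160.0 in wild-type replicates 1 to 3 at week 8. All 3 null values lay below all wild-type values. The log2 fold change was -0.36 ± 0.11 (limma adjusted p = 0.0311). This call was lost without wild-type replicate 1 or 3 or animal MUT218 or MUT229, with limma adjusted p from 0.0694 to 0.135. P1 values of Pdha1 were 1740.3, 1641 and 1646 in null and 1295, 1531 and 1733 in wild-type pools, which overlapped (0.15 ± 0.15, limma adjusted p = 0.658).

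The other subunits did not pass at either age. Week 8 log2 fold changes were 0.10 for Pdhb (E1 beta subunit), 0.20 for Dlat (the acetyltransferase core), 0.027 for Dld (lipoamide dehydrogenase, shared with the 2-oxoglutarate dehydrogenase complex) and -0.12 for Pdhx (which holds Dld to the core). Their 95% intervals were -0.15 to 0.35, -0.12 to 0.52, -0.25 to 0.31 and -0.49 to 0.24 in that order. At P1 the same 4 genes lay between -0.21 and 0.075. The 3 Dlat values of P1 null pools (691 to 745) stood just below those of wild-type pools (748 to 760), the only P1 difference without overlap in the complex.

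Of the 4 kinases that phosphorylate and silence the complex, Pdk2 and Pdk4 were lower in week 8 null islets (15.8% of all genes were), and Pdk1 and Pdk3 did not pass, with estimates of opposite sign. Pdk2, a kinase widely expressed in mouse tissues, measured 222, 403 and 266 in null and 591, 574 and 773 in wild-type islets at week 8. The groups did not overlap. The level in null islets was 0.45 times that in wild-type (-1.15 ± 0.22 log2, limma adjusted p = 0.00421), and leaving out any 1 library did not end this call. Pools at P1 gave 341, 369.6 and 503 for null and 371, 511 and 592 for wild-type, with wide overlap (-0.27 ± 0.23, limma adjusted p = 0.58).

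Pdk4, the kinase known to rise with fasting and fatty acid supply, showed the largest week 8 log2 fold change of the 33 members. It measured 274, 506 and 261 in null animals against 543, 1213 and 813 in wild-type animals at week 8. The highest null value, that of MUT219, was just below the lowest wild-type value. The log2 fold change was -1.29 ± 0.31 (limma adjusted p = 0.0125), and adjusted p rose to 0.0504 to 0.0553 without wild-type replicate 3, MUT218 or MUT229. In P1 pools Pdk4 measured 1372, 1043 and 1262 in null and 765, 1094 and 1215 in wild-type islets, the ranges overlapping (0.28 ± 0.20, limma adjusted p = 0.536). The week 8 difference minus the P1 difference was -1.57 ± 0.41 (limma adjusted p = 0.0149), a call kept without any 1 of the 12 libraries.

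Pdk1, the kinase known as a target of hypoxia signalling, measured 397, 599.9 and 388 in null and 570.0, 662 and 778 in wild-type islets at week 8. MUT219 lay inside the wild-type range and the other null animals below it. The log2 fold change of -0.56 ± 0.19 missed the threshold (limma adjusted p = 0.0533; DESeq2 called it lower). P1 values were 605, 594 and 605 in null and 457, 614 and 728 in wild-type pools, and the P1 estimate of 0.031 changed sign with edgeR, DESeq2 or without wild-type replicate 1.

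Pdk3, a kinase of low abundance in most mouse tissues, measured 265, 258 and 237 in null and 221, 176 and 164 in wild-type islets at week 8. All null animals exceeded all wild-type animals, yet the log2 fold change of 0.44 ± 0.17 did not pass (limma adjusted p = 0.0787). At P1 it was 234, 238 and 229.1 in null and 264, 183 and 254 in wild-type pools, with the null values inside the wild-type range. The P1 estimate of 0.017 changed sign with edgeR, with DESeq2 and without wild-type replicate 2. The phosphatase subunits Pdp1 and Pdp2, which reverse the kinases, did not pass at P1 (0.016 and 0.33) or week 8 (0.20 ± 0.15 and 0.19 ± 0.23).

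Of 12 mitochondrial cycle enzymes, 5 passed at week 8 (41.7%, beside 28.1% of all genes): Cs, Idh3b and Suclg1 were lower and Fh1 and Ogdhl higher in null islets. Cs, citrate synthase, condenses acetyl-CoA with oxaloacetate and opens the cycle. It measured 1156, 1136 and 1103 in week 8 null and 1713, 1396 and 1685 in week 8 wild-type islets. The null values were close together and below every wild-type value. The log2 fold change was -0.49 ± 0.12 (limma adjusted p = 0.0121), with adjusted p of 0.0643 without wild-type replicate 3 and 0.0573 without MUT229. At P1 the order was turned, with 2129, 1995 and 1642 in null and 1376, 1739 and 1673 in wild-type pools, but the ranges overlapped (0.27 ± 0.17, limma adjusted p = 0.471). The difference between the ages was -0.76 ± 0.20 (limma adjusted p = 0.0163; 0.0522 without P1 null replicate 1).

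Isocitrate dehydrogenase, the NAD-linked step, is built from the products of Idh3a, Idh3b and Idh3g. Idh3b measured 1090.5, 1267 and 1181 in null and 1464, 1579 and 1591 in wild-type islets at week 8, without overlap (-0.39 ± 0.11, limma adjusted p = 0.025). Adjusted p was 0.0876 to 0.106 without wild-type replicate 3, MUT218 or MUT229. P1 pools gave 1397, 1334 and 1313 for null and 1439, 1234 and 1308 for wild-type. Idh3a, the catalytic subunit gene, overlapped between genotypes at both ages. Its values at week 8 were 704, 693 and 653 in null and 622, 706 and 646 in wild-type, and at P1 they were 800.3, 743 and 682 in null and 843, 724 and 728 in wild-type. The Idh3a log2 fold changes of 0.056 ± 0.12 at week 8 (95% interval -0.20 to 0.31) and -0.044 ± 0.15 at P1 did not pass, and the P1 sign turned without wild-type replicate 1 or null replicate 3. Idh3g gave -0.095 at week 8 and -0.13 at P1, neither past the threshold.

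The 2-oxoglutarate dehydrogenase step is represented by Ogdh, its related gene Ogdhl and the transferase Dlst. Ogdh measured 3204, 3529 and 3289.6 in null and 2797, 3047 and 2820.1 in wild-type islets at week 8. All null animals were higher, by a margin that missed the threshold (0.21 ± 0.10, limma adjusted p = 0.164). The P1 pools gave 2447, 2272 and 2277 for null and 1627, 2229 and 2305 for wild-type, and the P1 log2 fold change was 0.20 ± 0.17 (limma adjusted p = 0.593). Dlst lay at 0.11 at week 8 and 0.094 at P1.

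Ogdhl varied far more than Ogdh. At week 8 it measured 1598, 1751 and 1592 in null and 862, 1564 and 799.6 in wild-type islets. Wild-type replicate 2 nearly reached the null values, and the other wild-type animals lay far below them. The log2 fold change was 0.68 ± 0.22 (limma adjusted p = 0.0428; edgeR 0.0628), and the limma call was lost under 5 of the 6 omissions, all but that of wild-type replicate 2, with adjusted p from 0.0967 to 0.168. P1 null pools measured 484, 599.5 and 1193 and P1 wild-type pools 815, 1278 and 1220.3, so that null replicate 3 lay within the wild-type range. That P1 log2 fold change was -0.62 ± 0.32 (limma adjusted p = 0.39). Between the ages the effect differed by 1.31 ± 0.43 (limma adjusted p = 0.0438), a call lost under 9 of 12 omissions (adjusted p 0.0748 to 0.12; kept without P1 wild-type replicate 1, P1 null replicate 3 or week 8 wild-type replicate 2). The P1 libraries with the lowest Ogdhl, null replicates 1 and 2, had the highest acinar shares at P1 (26.1 and 22.3%). They also had the lowest beta cell shares at P1 (1.42 and 1.27%). P1 wild-type replicate 1, next lowest in Ogdhl at 815, had an acinar share of 3.41%. The part of either share was not tested.

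Succinyl-CoA ligase joins the shared alpha subunit from Suclg1 with a beta subunit from Sucla2 (ADP-forming) or Suclg2 (GDP-forming). Suclg1 measured 1289, 1199.8 and 1257 in week 8 null and 1508, 1830.1 and 1707 in week 8 wild-type islets, without overlap (-0.43 ± 0.11, limma adjusted p = 0.0198). The call was lost without wild-type replicate 3 or any 1 null animal (adjusted p 0.0521 to 0.0807). P1 values of Suclg1 were 1216, 1127 and 988 in null and 1574, 973 and 1102 in wild-type pools. Suclg2 had a week 8 log2 fold change of -0.55 ± 0.19 that missed the threshold (limma adjusted p = 0.0615), and Sucla2 one of 0.048 ± 0.11 (95% interval -0.19 to 0.29). Neither passed at P1 (0.34 and -0.19).

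Fh1, fumarase, which turns fumarate into malate, had the largest rise among the members. In the same 3 null animals it measured 3183, 1407 and 1877 (MUT218, MUT219 and MUT229), against 1153, 1003 and 1091 in week 8 wild-type islets. All null animals were above all wild-type animals, with MUT218 far above the other null animals and MUT219 nearest to wild-type. The log2 fold change was 0.91 ± 0.24 (limma adjusted p = 0.02), and 0.0681 without wild-type replicate 3. Without MUT218 it was 0.59, still past the threshold. P1 pools were nearly level, 1020.2, 972 and 990.1 in null and 1288, 972 and 1038 in wild-type islets (-0.13 ± 0.16, limma adjusted p = 0.699). The ages differed by 1.05 ± 0.32 (limma adjusted p = 0.0295; 0.0585 to 0.0658 without P1 null replicate 1 or 2 or week 8 wild-type replicate 3). Mdh2, the mitochondrial malate dehydrogenase that closes the cycle, did not pass at week 8 (-0.16 ± 0.11, 95% interval -0.41 to 0.08) or P1 (-0.27 ± 0.20).

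**Figure D2:**
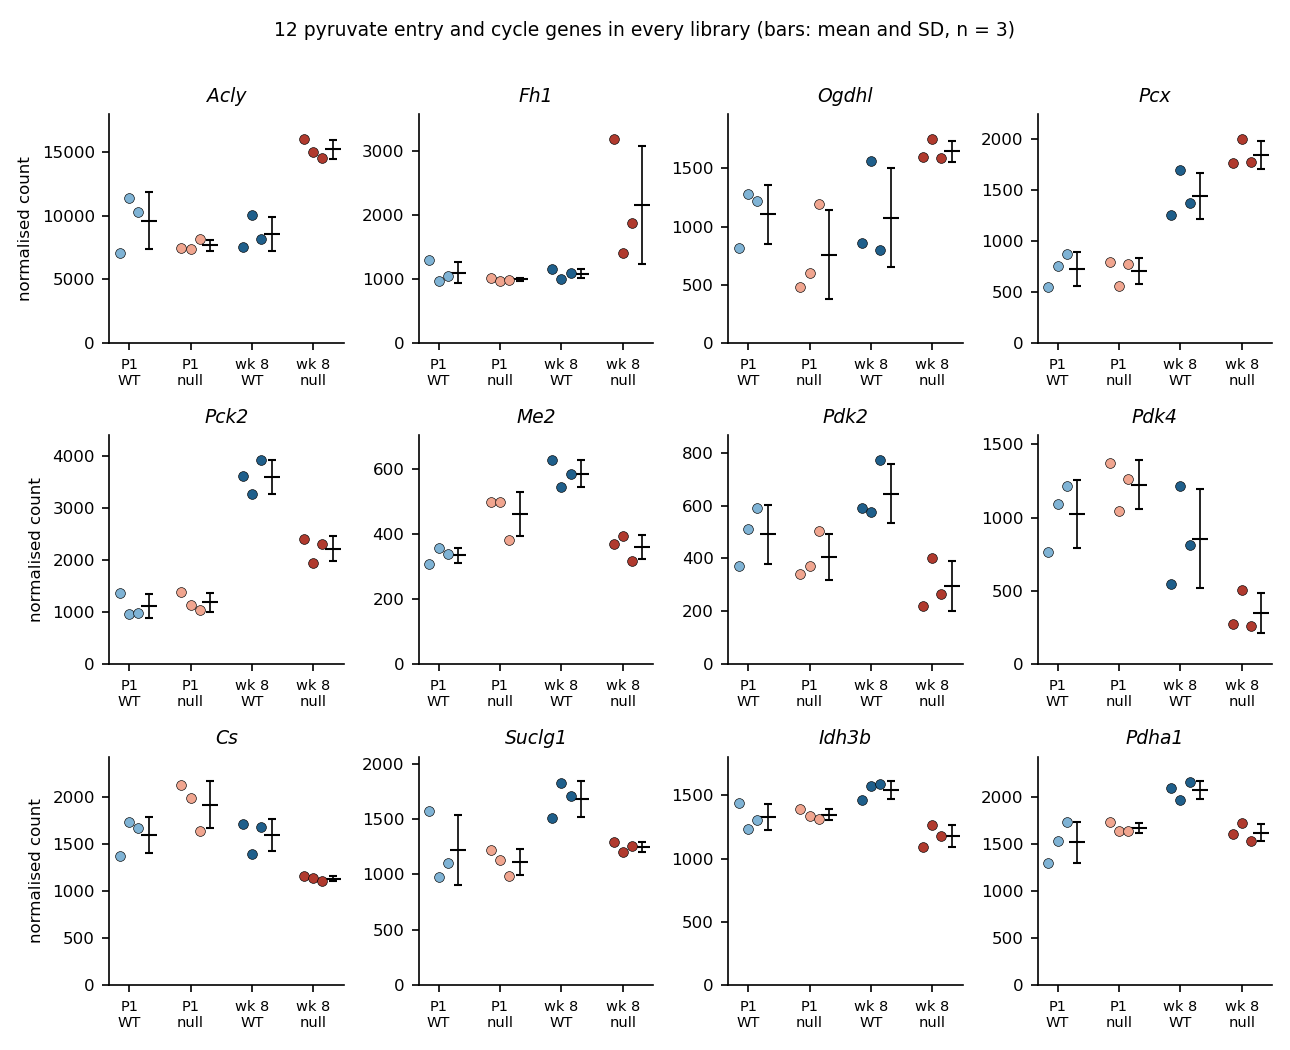
Normalised counts of 12 members in each of the 12 libraries (points, coloured by group) with the mean and SD of 3 libraries (bars); each vertical axis starts at 0. Week 8 null points lie above all week 8 wild-type points for Acly, Fh1, Ogdhl and Pcx and below them for the other 8 genes.

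Of 10 genes for pyruvate cycling and the entry or exit of carbon, Acly was higher and Me2 and Pck2 were lower in week 8 null islets (30%, beside 28.1% of all genes). Acly measured 16030.1, 15041 and 14565 in null and 7536, 10077 and 8147 in wild-type islets at week 8. All null animals were well above the highest wild-type animal. The fold was 1.78 (0.83 ± 0.14 log2, limma adjusted p = 0.00254), the smallest adjusted p of the 33 members at week 8, and no omission of 1 library ended the call. At P1, null pools measured 7448, 7369.7 and 8185 and wild-type pools 7080.0, 11384 and 10331. Wild-type replicate 1 lay below all null pools and both other wild-type pools above them, and the P1 log2 fold change of -0.30 ± 0.20 did not pass (limma adjusted p = 0.51). The effect differed between the ages by 1.13 ± 0.26 (limma adjusted p = 0.00718), also without any 1 library.

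Pcx, pyruvate carboxylase, is the entry route that refills oxaloacetate. It measured 1759.9, 1997 and 1767 in null and 1252, 1689.8 and 1374 in wild-type islets at week 8. The null animals were all above wild-type, the lowest by a small margin over wild-type replicate 2, and the log2 fold change of 0.37 ± 0.13 missed the threshold (limma adjusted p = 0.0659). At P1 it measured 792, 561 and 772 in null and 550.2, 755 and 871 in wild-type pools, with a log2 fold change of -0.026 ± 0.22 whose sign turned without wild-type replicate 2, wild-type replicate 3 or null replicate 2.

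Pck2, mitochondrial phosphoenolpyruvate carboxykinase, turns oxaloacetate into phosphoenolpyruvate. It measured 2402, 1941 and 2296 in null and 3605, 3254 and 3907 in wild-type islets at week 8, without overlap. Null islets held 0.616 times the wild-type level (-0.70 ± 0.12 log2, limma adjusted p = 0.00314), a call that leaving out any 1 library did not end. P1 values were 1389.6, 1130.4 and 1040.4 in null and 1370.3, 966 and 978 in wild-type pools (0.11 ± 0.19, limma adjusted p = 0.799). The ages differed by -0.81 ± 0.23 (limma adjusted p = 0.0235), with adjusted p of 0.0549 to 0.0723 without P1 wild-type replicate 2 or 3, P1 null replicate 1, week 8 wild-type replicate 3 or MUT219.

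The malic enzymes return malate to pyruvate. Me2, the mitochondrial NAD-linked form, measured 369, 394 and 319 in null and 629, 545 and 587 in wild-type islets at week 8. All null values were lower (-0.71 ± 0.14, limma adjusted p = 0.00445), whichever library was left out. At P1 all null pools were higher, 500.2, 500.3 and 383 against 309, 357 and 338 (0.45 ± 0.18, limma adjusted p = 0.284), which did not pass. The turn between the ages, -1.16 ± 0.22, had the smallest adjusted p of the members' age differences (limma adjusted p = 0.00225) and was kept without any 1 library. The acinar share also went up in null pools at P1 and down in null animals at week 8. With it as a covariate the week 8 log2 fold change of Me2 was 0.00046 (limma adjusted p = 0.99991). That share is nearly set by the groups, so this fit cannot separate it from the genotype, and its part in the Me2 values was not tested.

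Me1, the cytosolic NADP-linked malic enzyme, measured 428, 320.4 and 451 in null and 938, 337 and 663 in wild-type islets at week 8. Wild-type animals spread widely and overlapped the null animals (-0.59 ± 0.31, limma adjusted p = 0.193, 95% interval -1.28 to 0.11). P1 pools gave 991, 1097 and 829 in null and 974, 853 and 566 in wild-type islets (0.31 ± 0.22). Me3 was the member with the fewest reads, and its log2 fold change was 0.38 ± 0.23 at week 8 and -0.065 ± 0.32 at P1, neither past the threshold.

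Aco1, cytosolic aconitase, which doubles as an iron-sensing RNA-binding protein, measured 579, 590.4 and 621 in null and 751, 698 and 778 in wild-type islets at week 8. The null animals were lower without overlap, but -0.31 ± 0.11 did not pass (limma adjusted p = 0.0657). At P1 the null pools were the higher ones, 800.3, 771 and 823 against 515, 712 and 730.0, also without overlap and not past the threshold (0.31 ± 0.17, limma adjusted p = 0.43). Among the comparisons of genotype only the difference between the ages passed, at -0.62 ± 0.21 (limma adjusted p = 0.0435), and 8 of 12 omissions ended that call (adjusted p 0.0709 to 0.102); it was kept without any 1 P1 wild-type pool and without week 8 wild-type replicate 2. The remaining 3 genes of this group did not pass at week 8: Idh1 (cytosolic NADP-linked isocitrate dehydrogenase) gave -0.088 ± 0.21, Idh2 0.13 ± 0.14 and Mdh1 0.13 ± 0.11. Idh1 was lower in all P1 null pools (-0.36 ± 0.17, limma adjusted p = 0.347) without passing.

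Across the 33 members the null effect at P1 and at week 8 had opposite signs in 20 (60.6%), beside 60.1% of 18016 genes, and the 2 effects, which share no library, had a Pearson r of −0.45 and a Spearman rho of −0.40 across members (−0.35 and −0.31 across all genes). The points share their depth scaling and the acinar share, which went up with the null genotype at P1 and down at week 8. The interaction test passed for 8 members, 3 more positive at week 8 (Acly, Fh1 and Ogdhl) and 5 more negative (Me2, Pdk4, Cs, Pck2 and Aco1), 24.2% beside 21.8% of 18338 genes (8.2% and 13.6% by direction), and 12 members had an unadjusted p under 0.05, beside 34.3% of all genes. Without P1 null replicate 1 the counts were 1 and 2, without P1 null replicate 2 they were 1 and 4, and without week 8 wild-type replicate 3 they were 1 and 3. The acinar covariate left 0 of these calls. Ogdhl was lost with edgeR under TMM and upper quartile scaling and Aco1 with TMM, while DESeq2 added Pdha1 and Suclg2 as more negative.

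**Figure D3:**
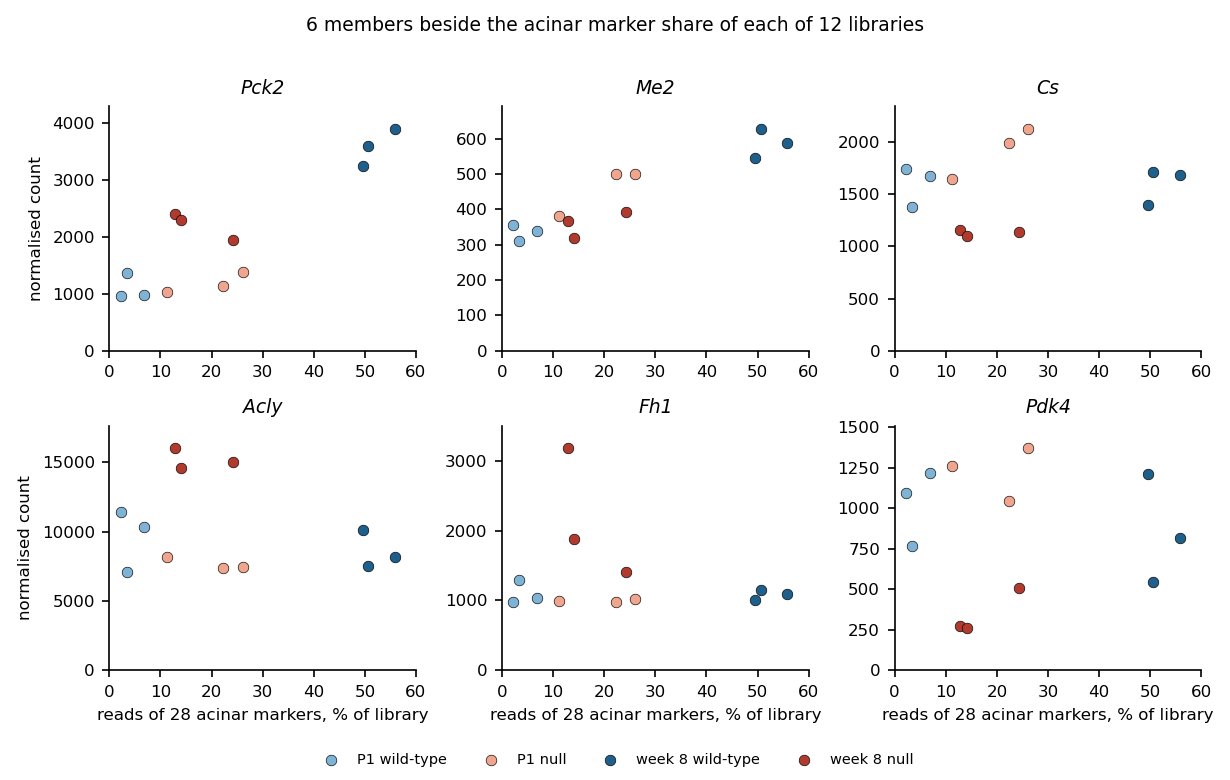
Normalised counts of 6 members (vertical axes from 0) against the share of reads from 28 acinar markers, in percent, for each of the 12 libraries. Week 8 wild-type libraries lie alone at 49.6% and above. At acinar shares between 11.2 and 26.1% the P1 null and week 8 null libraries differ in Acly, Fh1, Pck2, Cs and Pdk4, while their Me2 values overlap. Those null groups also differ in age, pooling, library series and beta cell share, and the part of these was not tested.

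Between week 8 and P1 in wild-type islets, 9 members rose and 2 fell (33.3%, beside 32.6% of 18338 genes, 15.9% higher and 16.8% lower). An unadjusted p under 0.05 was reached by 12 members, beside 42.6% of all genes, and the ages did not overlap for 9 higher and 5 lower members, beside 20.6% and 21.2% (together 41.9%) of all genes. Those that rose were Pck2 (1.71 ± 0.17), Pcx (1.00 ± 0.19), Pdp2 (0.93 ± 0.32), Me2 (0.81 ± 0.15), Suclg2 (0.68 ± 0.21), Ogdh (0.51 ± 0.14), Suclg1 (0.49 ± 0.17), Mdh1 (0.48 ± 0.15) and Pdha1 (0.46 ± 0.13). Idh1 (-0.59 ± 0.20) and Pdp1 (-0.43 ± 0.15) fell. Pck2 had the smallest adjusted p (4.15e-06, limma), and Pck2, Pcx, Me2 and Ogdh were called without any 1 library. With edgeR, upper quartile scaling gave 7 higher, losing Mdh1 and Suclg1, and TMM gave 1 lower, losing Pdp1. Without week 8 wild-type replicate 3 the counts were 4 and 0, without P1 null replicate 2 they were 8 and 0, and 1 member fell under 9 of the other omissions. The acinar share rose from 2.18 to 6.82% to 49.6 to 55.8% over the same comparison, and 0 members were called with it as a covariate. In it 5 of 6 macrophage markers also rose, and 3 of 8 mesenchyme and 3 of 8 endothelial markers fell.

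Calls in the wild-type age comparison that ended with an omission were these. Pdha1 reached a limma adjusted p of 0.0524 without week 8 wild-type replicate 3. Suclg1 reached 0.0897 to 0.145 without P1 wild-type replicate 2 or 3 or week 8 wild-type replicate 2 or 3, and Mdh1 0.0524 to 0.114 without the same libraries. Suclg2 had 0.0611 to 0.11 without P1 wild-type replicate 1 or 2 or week 8 wild-type replicate 3. Idh1 had 0.0504 to 0.105 without P1 wild-type replicate 1 or 2, P1 null replicate 2 or week 8 wild-type replicate 2 or 3. The Pdp2 call had 0.0512 to 0.141 without P1 wild-type replicate 1, P1 null replicate 2, week 8 wild-type replicate 2 or 3 or MUT218, and the log2 fold change was 0.50 without that first library, in which Pdp2 was at 50.3 against 113 and 135 in the other pools. The Pdp1 call ended under 9 of 12 omissions (0.055 to 0.209), all but P1 wild-type replicate 1 and week 8 wild-type replicates 1 and 2, and its log2 fold change was -0.27 without week 8 wild-type replicate 3.

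In null islets 8 members rose and 4 fell from P1 to week 8 (36.4%, beside 46.7% of 18338 genes, 21.2% higher and 25.5% lower). An unadjusted p under 0.05 was reached by 14 members, beside 53.3% of all genes, and the ages did not overlap for 11 higher and 8 lower members, beside 29.6% and 33.2% (together 62.8%) of all genes. Acinar markers took 11.2 to 26.1% of reads at P1 and 12.9 to 24.3% at week 8, and 7 of 28 rose and 4 fell. With the acinar share as a covariate the counts were also 8 and 4. The share of all genes called with it is not given here. The beta cell share rose from 1.27 to 3.03% to 11.9 to 13.7%, and 14 of 14 beta cell markers rose (median log2 fold change 2.90). Markers of other cell types moved in this comparison too. Of these, 8 of 8 mesenchyme (median log2 fold change -3.85), 7 of 8 duct (-2.95) and 7 of 8 endothelial markers (-1.52) fell. In addition 4 of 6 macrophage markers rose. The part of acinar, beta cell or other cell content in these calls was not tested. Pcx rose with the smallest adjusted p (1.39 ± 0.19, limma adjusted p = 3.5e-05), with Ogdhl (1.23 ± 0.31), Fh1 (1.03 ± 0.22), Acly (0.99 ± 0.18), Pck2 (0.90 ± 0.17), Me3 (0.83 ± 0.28), Mdh1 (0.78 ± 0.15) and Ogdh (0.52 ± 0.14). Pdk4 (-1.88 ± 0.29, limma adjusted p = 0.000118), Me1 (-1.29 ± 0.30), Cs (-0.75 ± 0.14) and Aco1 (-0.42 ± 0.15) fell. Of these 12 calls, 10 were kept without any 1 library; Me3 was lost without P1 null replicate 1 or 2, MUT219 or MUT229 (limma adjusted p 0.0607 to 0.129) and Aco1 without any 1 of the 6 null libraries (0.0541 to 0.0809). Pcx, Pck2, Mdh1 and Ogdh rose with age in both genotypes, 44.4% of the 9 wild-type and 50% of the 8 null calls, and 0 members fell in both. The share of all genes called in both genotypes is not given here, so this overlap does not set the members against other genes.

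**Figure D4:**
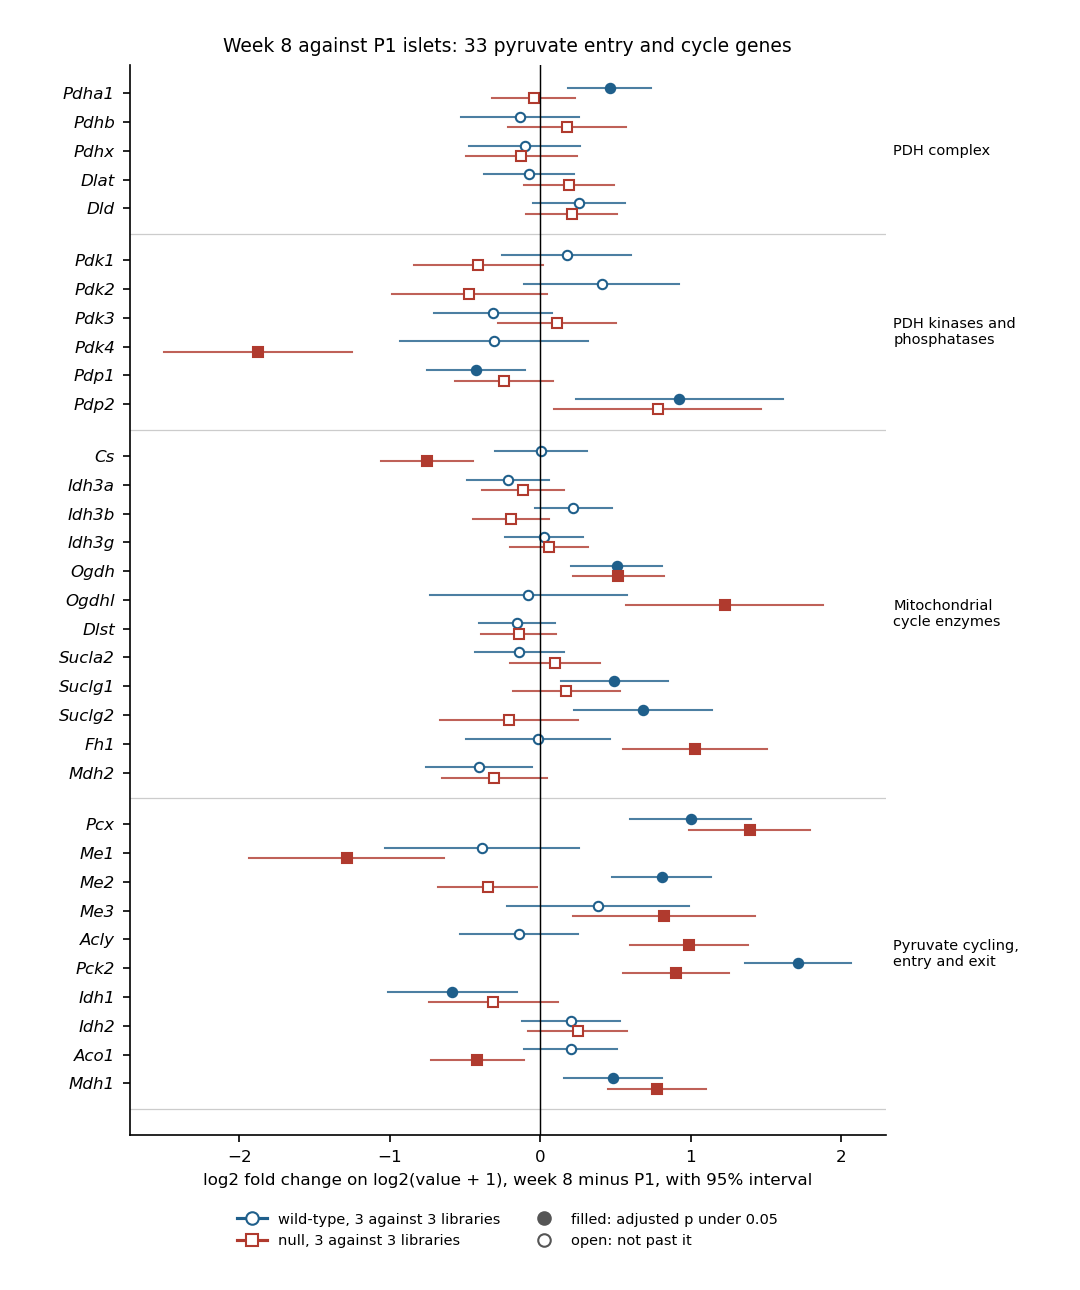
Log2 fold change of week 8 over P1 islets for the 33 members in wild-type (blue circles) and null mice (red squares), with 95% intervals; filled symbols passed an adjusted p under 0.05. Pcx, Pck2, Mdh1 and Ogdh are filled to the right of 0 in both genotypes, and Pdk4, Cs and Me1 are filled to the left in null mice alone.

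Relative levels within sets of related genes were taken as shares of the normalised count per kb in each library, over 8 sets and 76 comparisons of 3 against 3 libraries, for which an exact two-sided permutation test cannot go below p = 0.10. In the 6 sets of 2 genes each share mirrors the other, which leaves 52 distinct comparisons. The groups did not overlap, and the exact p was 0.10, in 24 of these 52, and none can reach 0.05. Normalised counts of single genes did not overlap between null and wild-type for 23.6% of all genes at P1 and 43.6% at week 8. Between the ages they did not overlap for 41.9% in wild-type and 62.8% in null islets. Pcx made up 50% ± 0.814 of the sum of Pcx and Pdha1 in week 8 null and 37.8% ± 4.6 in week 8 wild-type islets (49.1 to 50.6% against 34.5 to 43.1%, SD, n = 3, exact p = 0.10). At P1 that share was 27.1% ± 3.37 in null and 29.5% ± 1.9 in wild-type islets, with overlap. The near equality of Pcx and Pdha1 per kb in week 8 null islets rests on the deposited lengths of both genes, which were not checked. The difference in share between groups uses the same lengths throughout.

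Pdk3 made up 29.1% ± 6.05 of the 4 kinases in week 8 null against 12.4% ± 4.14 in week 8 wild-type islets (exact p = 0.10), and 14.2% ± 1.53 and 15.3% ± 4.84 at P1. Pdk4 held 27.5% ± 3.96 in week 8 null and 39.3% ± 10.3 in week 8 wild-type islets, with overlap, and 54% ± 4.03 against 47.2% ± 3.09 at P1, without. Mdh1 had 61.2% ± 0.503 of both malate dehydrogenases in week 8 null and 56.3% ± 0.463 in wild-type islets (exact p = 0.10), above 42.7% ± 1.59 and 41.1% ± 1.82 at P1. Among malic enzymes, Me1 held 60.7% ± 7.58 and 58.7% ± 1.23 in P1 wild-type and null islets and 40.9% ± 10.6 and 42.2% ± 6.6 at week 8, with overlap between the genotypes at both ages. Idh2 held 71.5 to 79.4% of both NADP-linked isocitrate dehydrogenases in P1 wild-type, 78.5 to 82.2% in P1 null, 79.3 to 86.2% in week 8 wild-type and 83 to 88.1% in week 8 null libraries. Those ranges overlapped between genotypes at both ages and between the ages in wild-type, but not between the ages in null mice (exact p = 0.10).

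**Figure D5:**
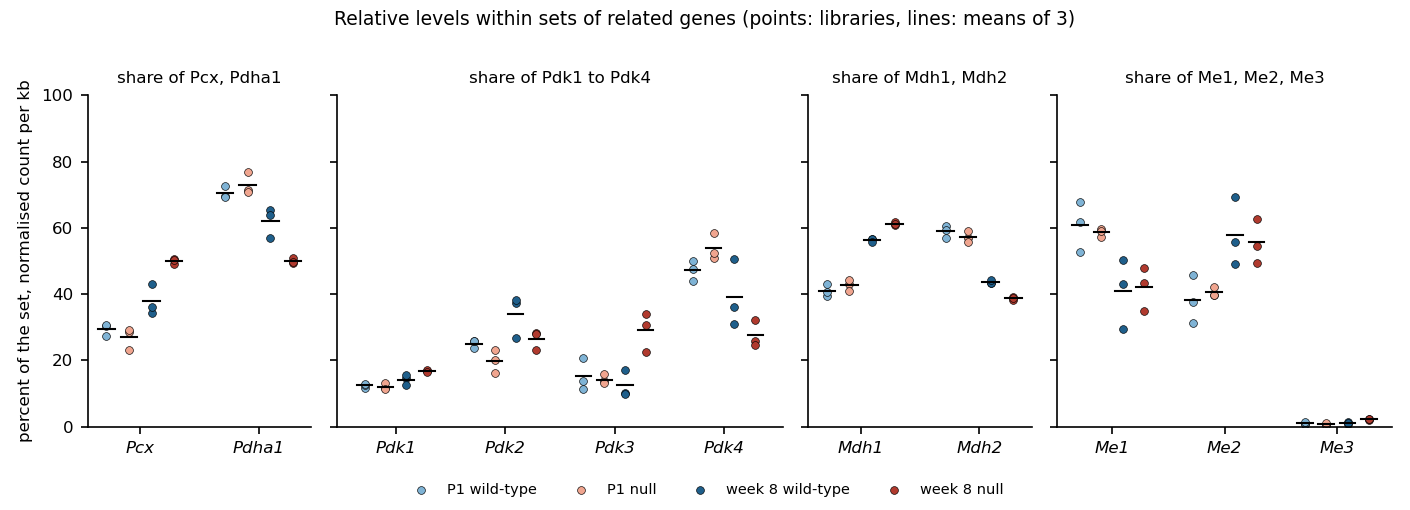
Shares of normalised count per kb within 4 sets (vertical axis, percent of the set), by gene and group; points are libraries and lines are means of 3. With the deposited lengths, Pcx and Pdha1 meet near 50% in week 8 null libraries, and Pdk3 reaches 22.4 to 34.2% there against 10.0 to 17.2% in week 8 wild-type.

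Of 22 other genes of the pathway (carriers, succinate dehydrogenase, lactate dehydrogenase, shuttle and lipoylation enzymes), 0 passed at P1 with limma (6 at an unadjusted p under 0.05, beside 15.0% of all genes) and 10 passed at week 8 (45.5%, beside 28.1% of all genes), 2 higher and 8 lower. Ldha, lactate dehydrogenase A, which beta cells normally keep low, measured 310.2, 368 and 323 in week 8 null and 1563, 835 and 1428 in week 8 wild-type islets (-1.88 ± 0.21, limma adjusted p = 0.000516). Slc16a1, a lactate and pyruvate transporter of the plasma membrane that beta cells also keep low, measured 138, 91.3 and 122 against 492, 193 and 536 (-1.67 ± 0.35, limma adjusted p = 0.0069). Both were below wild-type in every null animal. At P1 they lay at 0.49 ± 0.22 and 0.64 ± 0.18, which did not pass. At week 8, 28 of 28 acinar and 8 of 8 mesenchyme markers were lower in null islets (median log2 fold changes -2.46 and -2.27). In that comparison 11 of 14 beta cell markers were higher. The part of these cell types in the Ldha and Slc16a1 values was not tested.

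Slc25a10, the mitochondrial dicarboxylate carrier that exchanges malate and succinate, measured 176, 238 and 175 in null and 389, 389 and 463 in wild-type islets at week 8 (-1.08 ± 0.17, limma adjusted p = 0.00181). Slc25a13, an aspartate and glutamate carrier of the malate-aspartate shuttle, measured 70.5, 58 and 81.8 against 138, 120.2 and 178 (-1.04 ± 0.24, limma adjusted p = 0.01; 0.0567 without wild-type replicate 3). Neither overlapped between genotypes. Sdhb, the iron-sulphur subunit of succinate dehydrogenase, measured 859, 994 and 884 against 1402, 1345 and 1543 (-0.65 ± 0.11, limma adjusted p = 0.0031), while Sdha, Sdhc and Sdhd gave 0.31, 0.18 and 0.18 and did not pass. Glud1, glutamate dehydrogenase, measured 3051, 3022 and 2764 against 3807, 3597 and 4388 (-0.41 ± 0.12, limma adjusted p = 0.0252; 0.063 to 0.12 without wild-type replicate 3, MUT218 or MUT229). Values per library are given for the 6 called genes with the smallest adjusted p, and the following genes are named as further called genes or their partners. Mpc1 and Mpc2, the mitochondrial pyruvate carrier, lay at -0.11 ± 0.27 and -0.41 ± 0.14; Mpc2 passed (limma adjusted p = 0.0459), but not without any 1 library other than wild-type replicate 1 (adjusted p 0.0598 to 0.174). Lias, lipoic acid synthase (0.40 ± 0.12), was higher, and Lipt1, a lipoyl transferase (-0.95 ± 0.28), was lower. Those calls ended under 4 and 5 of the 6 omissions, all but wild-type replicate 2 and MUT229 for Lias and MUT219 for Lipt1 (limma adjusted p 0.0625 to 0.148 and 0.0523 to 0.116).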

How the data were processed

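Poly(A) RNA of islets was sequenced with a strand-specific kit. The authors deposited 1 table of normalised counts per gene (a signal: reads divided by DESeq 1.10.1 size factors; build mm9, Ensembl release 67 and bedtools 2.11 per the submitters' notes). The aligner is not given in the sources used here. Each value was a whole multiple of its library's step (100% within 0.001 of a whole number), so reads were recovered for edgeR 4.0.16 and DESeq2 1.42.0, run as alternatives. The deposited group means, fold changes and p-values were not used. The main test was limma 3.58.1 (trend) on log2(value + 1) for genes with a mean of at least 1, in separate fits of 6 libraries at P1 and week 8 and 1 fit of 12 libraries for the interaction and the age comparisons, which share that fit's spread. Values in every library were given for up to 12 called members with the smallest adjusted p, for 10 members chosen by role and for at most 6 other pathway genes. The values of 1 other pathway gene are not reported here. Members, lists and alternatives were chosen with earlier results of these data known. The code was tested on simulated data.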

Additional observations from a re-analysis of the deposited data

Results flagged for a closer look

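The effect of the null genotype differed between week 8 and P1, by the limma interaction test, for the following genes. Among members that were lower in null islets at week 8, the difference on the log2 scale was -1.16 for Me2, -1.57 for Pdk4, -0.76 for Cs and -0.81 for Pck2, and it was -0.62 for Aco1. It was 1.13 for Acly, 1.05 for Fh1 and 1.31 for Ogdhl, which were higher in null islets at week 8. Among the other pathway genes it was -2.37 for Ldha, -2.31 for Slc16a1, -1.63 for Slc25a13, -1.28 for Slc25a10, -1.27 for Lipt1 and 0.84 for Lias. The Lipt1 call was lost, with limma adjusted p of 0.0658 to 0.0822, without P1 wild-type replicate 2 or 3, P1 null replicate 1 or 2, week 8 wild-type replicate 3, MUT218 or MUT229. None of these genes passed the limma test at P1 alone, where 0 members and 0 of the 22 other genes passed. An unadjusted limma p under 0.05 was reached there by 1 and 6, beside 15.0% of all genes. The interaction calls made up 24.2% of the 33 members and 27.3% of the 22 other genes, beside 21.8% of all genes. In the interaction 28 of 28 acinar markers were lower (median -5.03) and 12 of 14 beta cell markers higher. The part of cell content in these differences was not tested.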

How the results depend on the processing

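Another scaling moved the median log2 fold change of all genes by under 0.1. Of the fold changes recomputed, 1244 kept their direction and side of the threshold, 139 lost the threshold, 11 gained it and 34 changed sign. With the acinar share as a covariate, 0 members were called higher and 0 lower at week 8, in the interaction and with age in wild-type. That covariate turned the sign at P1 for Pdha1 (-0.013), Pdk1 (-0.41), Pdk3 (-0.022), Pdk4 (-0.19), Ldha (-0.11) and Slc25a10 (-0.27), and at week 8 for Cs (0.072), Ogdhl (-1.08), Pdha1 (0.0081), Pdk1 (0.42) and Me2 (0.00046). It did so in the interaction for Cs (0.059), Ogdhl (-1.25), Fh1 (-0.23), Slc25a10 (0.25), Sdhb (0.34) and Glud1 (0.15), and with age in wild-type for Idh1 (0.95), Suclg2 (-1.75), Pdha1 (-0.037) and Me2 (-0.16). The cause was not tested. At P1 the estimate of Pdk1 was -0.026 with edgeR and TMM, -0.0076 with upper quartile scaling and -0.013 with DESeq2, and that of Pdk3 was -0.035, -0.027 and -0.022. An adjusted p of at most 0.1 gave 5 members higher at week 8 and 9 lower in the interaction, and edgeR with TMM 1 lower with age in wild-type.

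Leaving out 1 library gave 1 to 4 members higher and 3 to 10 lower at week 8, 1 to 3 and 2 to 7 in the interaction, 4 to 9 and 0 to 2 with age in wild-type, 7 to 9 and 3 to 6 with age in null, and 0 at P1. P1 estimates then ran from -0.10 to 0.028 for Idh3a, -0.21 to 0.13 for Pcx, -0.15 to 0.18 for Pdk1 and -0.15 to 0.11 for Pdk3.

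Departures from the group means were correlated between libraries of the same replicate number. The values were 0.0024, -0.017 and -0.024 at P1 and -0.015, -0.045 and -0.021 between wild-type ages. Libraries of different numbers gave -0.065 to 0.070 at P1 and -0.045 to 0.069 between wild-type ages. With 3 libraries per group these correlations cannot settle whether samples were paired. With a replicate block 0 members were called at P1, and 4 rose and 0 fell with age in wild-type.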
